A study of Rattus norvegicus with 8 samples.

Results

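The 10 genes followed here mark macrophages and antigen presentation, and were measured in the right stellate ganglion, the sympathetic ganglion that supplies the heart. The animals were 4 Wistar controls and 4 spontaneously hypertensive rats (SHR). The members were chosen by name as 10 RefSeq transcript records of 18314, and all 10 were found in every rat and passed the filter on low counts, as did 13659 records in all. They were the macrophage genes Cd68 (NM_001031638), Itgam (NM_012711), Aif1 (NM_017196), Csf1r (NM_001029901) and Cx3cr1 (NM_133534), the macrophage and helper T cell gene Cd4 (NM_012705), the class II genes Cd74 (NM_013069), RT1-Da (NM_001008847) and RT1-Ba (NM_001008831), and the class I light chain B2m (NM_012512). All rats were male and 16 weeks old, no transgene or drug treatment is named for either strain, the ganglia were taken after an overdose of pentobarbital, and each library came from 1 ganglion of 1 rat. SHR is an inbred strain with hypertension and Wistar is an outbred stock related to its founders, so the control rats need not share alleles with each other.

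Macrophages live among the neurons, satellite glia and vessels of every ganglion. The receptor Csf1r binds the growth factors Csf1 and Il34 on which macrophages depend, Cx3cr1 binds the neuronal chemokine Cx3cl1, Itgam is the alpha chain of an adhesion and complement receptor, Cd68 is a lysosomal membrane protein and Aif1 is an actin-binding protein of macrophages and microglia. The major histocompatibility complex (MHC, named RT1 in the rat) holds highly variable genes of both classes. Class II molecules are pairs of an alpha and a beta chain, such as RT1-Ba with RT1-Bb and RT1-Da with RT1-Db1, that show peptides from engulfed material to Cd4 T cells, and Cd74 is the chaperone that guards their groove until they reach the endosome. Class I molecules show peptides made inside any nucleated cell, and each needs B2m, whose gene lies outside the complex. Rat macrophages carry Cd4 on their surface as well.

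The promoters of class II chains are shown first. SHR replicates 3 and 4 had the lowest levels of these chains in the values below, although RT1-Bb was low in every SHR. Whether the promoters have a part in these levels was not tested. The sequences are from RefSeq on the reference assembly GRCr8, 250 bases before to 50 bases after the gene start, 5′ to 3′ on the strand of the gene, and they are not the sequences of the rats studied. Capitals mark CTGATTGG, the letters of the Y box of class II promoters, which were chosen for the search after these sequences had been read. RT1-Da lies at chr20:4515165-4515464 (+), RT1-Ba at chr20:4576807-4577106 (+), RT1-Bb at chr20:4604069-4604368 (-) and RT1-Db1 at chr20:4560113-4560412 (-).
RT1-Da: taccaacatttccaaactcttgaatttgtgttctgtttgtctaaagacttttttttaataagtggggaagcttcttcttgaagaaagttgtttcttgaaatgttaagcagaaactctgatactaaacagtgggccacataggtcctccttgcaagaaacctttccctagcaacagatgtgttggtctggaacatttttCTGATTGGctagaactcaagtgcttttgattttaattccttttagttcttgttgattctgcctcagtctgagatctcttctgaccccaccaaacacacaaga
RT1-Ba: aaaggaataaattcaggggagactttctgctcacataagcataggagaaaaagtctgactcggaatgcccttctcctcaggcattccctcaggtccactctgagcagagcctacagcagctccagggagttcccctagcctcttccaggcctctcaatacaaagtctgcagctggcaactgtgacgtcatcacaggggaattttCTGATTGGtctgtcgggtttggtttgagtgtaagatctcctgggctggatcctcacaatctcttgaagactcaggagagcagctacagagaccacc
RT1-Bb: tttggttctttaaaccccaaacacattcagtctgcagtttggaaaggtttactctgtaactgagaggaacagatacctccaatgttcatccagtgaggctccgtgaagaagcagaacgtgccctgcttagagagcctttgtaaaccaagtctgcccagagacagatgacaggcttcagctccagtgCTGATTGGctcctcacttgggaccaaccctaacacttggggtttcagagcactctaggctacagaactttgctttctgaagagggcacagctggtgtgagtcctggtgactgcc
RT1-Db1: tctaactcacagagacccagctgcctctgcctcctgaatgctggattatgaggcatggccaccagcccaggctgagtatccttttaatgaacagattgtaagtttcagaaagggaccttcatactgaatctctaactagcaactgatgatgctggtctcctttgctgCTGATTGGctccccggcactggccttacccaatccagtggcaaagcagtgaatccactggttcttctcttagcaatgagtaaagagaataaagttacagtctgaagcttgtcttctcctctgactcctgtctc
The match began 52 bases before the start in RT1-Da, 46 in RT1-Ba, 64 in RT1-Bb and 83 in RT1-Db1. Searched on both strands and by itself, with no overlap with another motif searched, it stood in 7 of 9 promoters of RT1 genes on the class II list and in 3.502% of all 33469 promoters of this length. Among the 8 members with a promoter in the table it was found in 3, RT1-Da, RT1-Ba and, on the opposite strand, Cd68. The macrophage motif GAGGAA, of the kind bound by PU.1, stood in 4 of the 8 members and in 27.6% of all promoters. Aif1 and Cd4 were not in the table.

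The libraries held 25820299 to 35509074 estimated counts, and the totals of the strains overlapped (33505200 ± 2371410 in Wistar and 30903900 ± 3580860 in SHR, SD, n = 4, exact two-sided permutation test, p = 0.286, where the smallest p possible is 0.0286). The neuronal identity of the tissue was plain in every rat, with 14141 to 21579 TPM of Npy, the cotransmitter neuropeptide Y, and 3643 to 6766 TPM of Dbh, the noradrenaline-synthesising enzyme. TPM, transcripts scaled to a fixed total per library, is the share of transcripts that belong to a record, which corrects for length and so allows genes to be compared with each other. On the 500 most variable records, the first principal component (30.7% of the variance) divided the strains, with Wistar at -25.5 to -15.3 and SHR at 7.88 to 30.5. The second (20.2%) placed SHR replicates 1 and 2 at 24.6 and 27.7 and SHR replicates 3 and 4 at -22.0 and -15.5. The members were not left out of these records.

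Cd74 was the most abundant member, and the class II chains and B2m stood far above the macrophage receptors. In Wistar the mean level was 703 ± 190 TPM (SD, n = 4) for Cd74, 220 ± 17.1 TPM for B2m, 132 ± 24.9 TPM for RT1-Da and 96.5 ± 15.3 TPM for RT1-Ba. Aif1 followed with 39.5 ± 7.08 TPM, Csf1r with 15.04 ± 4.78 TPM, Cx3cr1 with 9.14 ± 2.66 TPM, Cd4 with 7.91 ± 0.840 TPM, Cd68 with 3.95 ± 0.294 TPM and Itgam with 0.693 ± 0.268 TPM. Among these Wistar rats the ranges of neighbours in the order overlapped for RT1-Da and RT1-Ba, for Csf1r and Cx3cr1, and for Cx3cr1 and Cd4, while the other neighbours were separate. The order in SHR differed only in the place of Cd4 and Cx3cr1, but there the ranges of 7 neighbouring pairs of 9 overlapped, the exceptions being B2m above RT1-Da and Cd68 above Itgam. Cd74 exceeded B2m in 6 of 8 rats, and SHR replicates 3 and 4 were those in which it did not.

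No member passed the strain comparison. In edgeR's quasi-likelihood fit with Benjamini-Hochberg adjustment over all 13659 records, 0 of the 10 members had an adjusted p under 0.05, whereas 389 records did (2.85% of those tested, 158 higher and 231 lower in SHR). DESeq2 and limma on log2(TPM + 0.5) also called 0 members, and 1 member, B2m, had an unadjusted p under 0.05 with edgeR. The share of all records at that unadjusted threshold was not taken, here or for the lists below. The log2 fold changes of SHR over Wistar ran from -0.75 to 0.31, with a median of -0.34 against 0.01 over all records tested. These intervals were wide. The standard errors of the 9 members other than B2m were 0.37 to 0.55 on the log2 scale, and the median over all records was 0.19, so a moderate strain difference in these genes was not detectable with 4 rats per strain.

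**Figure D1:**
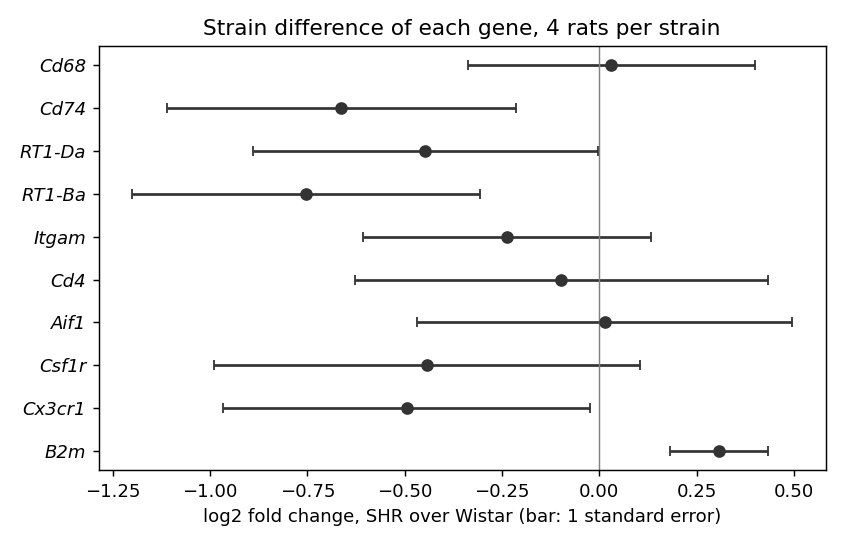
Log2 fold change of SHR over Wistar for each gene (x axis; point, edgeR estimate; bar, 1 standard error; 4 rats per strain). B2m has the narrowest bar, at 0.31 ± 0.13, while the other genes have bars of 0.37 to 0.55 and lie between -0.75 and 0.03.

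The spread was larger among the SHR. In TPM, SHR replicates 1 and 2 lay within or above the Wistar range in every member, except that SHR replicate 2 was just under it in RT1-Ba, while SHR replicates 3 and 4 lay below it in 8 members. For Csf1r, the receptor that macrophages need to survive, the Wistar rats had 14.0, 15.6, 21.1 and 9.49 TPM and the SHR had 19.3, 15.7, 3.24 and 4.01 TPM. The first pair of SHR lay inside the Wistar range and the other pair under it. The estimated log2 fold change was -0.44 (SE 0.55, edgeR adjusted p = 0.722).

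Aif1 showed the same separation with higher levels at the top. It had 39.6, 37.9, 48.8 and 31.6 TPM in the Wistar rats and 53.6, 66.7, 11.8 and 20.3 TPM in the SHR. The first pair of SHR exceeded every Wistar rat and the other pair lay below every one, so that the means almost coincided (log2 fold change 0.01, SE 0.48, edgeR adjusted p = 0.993).

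Cd68 was steady among the Wistar rats, with 3.54, 4.196, 4.12 and 3.96 TPM, and had 5.69, 5.70, 2.38 and 2.01 TPM in the SHR. No SHR fell within the Wistar range, with 2 rats on each side of it. Its log2 fold change was 0.03 (SE 0.37, edgeR adjusted p = 0.979).

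Cx3cr1 had 10.04, 11.8, 9.29 and 5.47 TPM in the Wistar rats and 10.5, 8.61, 2.14 and 3.73 TPM in the SHR. SHR replicates 3 and 4 were again the lowest of all, though Wistar replicate 4 came close to them (log2 fold change -0.49, SE 0.47, edgeR adjusted p = 0.631). Its counts were not whole numbers in any rat, which means that part of its reads was shared with other records.

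Itgam was the exception among the macrophage genes. It had 0.873, 0.381, 0.955 and 0.562 TPM in the Wistar rats and 0.728, 0.726, 0.483 and 0.381 TPM in the SHR, from 33 to 94 counts a library, so the strains overlapped over nearly the whole range. The lowest level was shared by Wistar replicate 2 and SHR replicate 4. Its log2 fold change was -0.24 (SE 0.37, edgeR adjusted p = 0.788).

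Cd4, which in the rat is carried by macrophages and by helper T cells, varied most among the SHR. It had 8.43, 8.09, 8.45 and 6.68 TPM in the Wistar rats and 14.1, 9.18, 1.90 and 3.20 TPM in the SHR, a 7.41-fold range in SHR against 1.27-fold in Wistar. The log2 fold change was -0.10 (SE 0.53, edgeR adjusted p = 0.948). On the T cell list, Cd247, the zeta chain of the T cell receptor, had 2.89 to 5.45 TPM in Wistar and 4.59 to 9.66 TPM in SHR, with the highest value in SHR replicate 3, where Cd4 was lowest. Lck, the kinase bound to Cd4 in T cells, had 3.97 to 4.96 TPM in Wistar and 3.21 to 3.91 TPM in SHR.

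**Figure D2:**
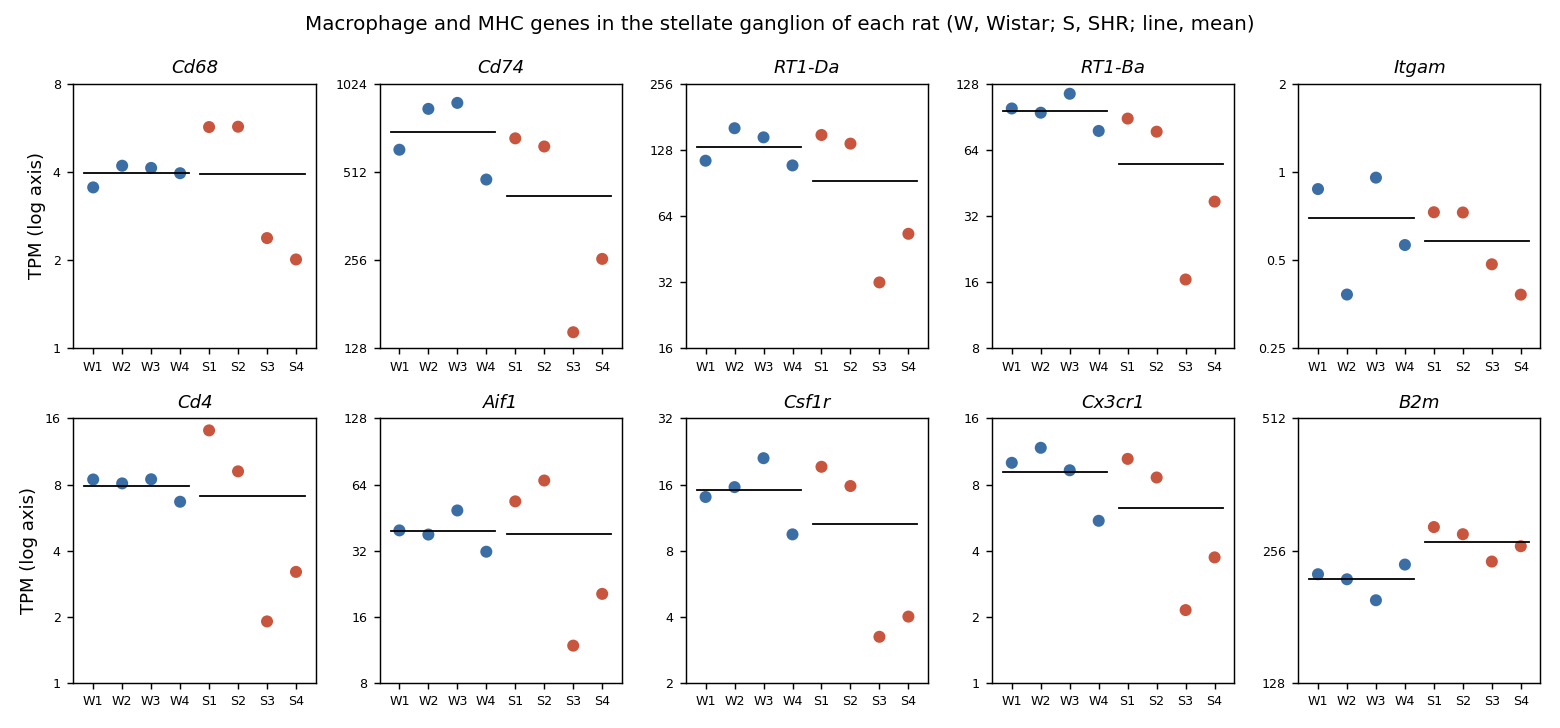
Level of each gene in each rat (y axis, TPM on a log axis with its own range per gene; blue, Wistar replicates 1 to 4; red, SHR replicates 1 to 4; line, strain mean). In 8 of the 10 genes SHR replicates 3 and 4 lie below all 4 Wistar rats, and Itgam and B2m are the genes in which they do not.

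The class II genes were spread in the same manner. Cd74 had 609, 840, 880 and 482 TPM in the Wistar rats and 666, 625, 145 and 258 TPM in the SHR, with a log2 fold change of -0.66 (SE 0.45, edgeR adjusted p = 0.482). Its counts were not whole in 6 rats, and no single partner record was found.

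RT1-Da, the alpha chain of the D molecule, had 114, 160, 146 and 109 TPM in the Wistar rats and 149, 136, 31.9 and 53.0 TPM in the SHR. RT1-Ba, the alpha chain of the B molecule, had 98.7, 94.4, 115 and 78.0 TPM in the Wistar rats and 88.7, 77.4, 16.4 and 37.2 TPM in the SHR. In both alpha chains SHR replicates 3 and 4 lay below every Wistar rat, and for RT1-Ba SHR replicate 2 also fell just under the lowest Wistar TPM. The log2 fold change was -0.45 (SE 0.44, edgeR adjusted p = 0.647) for RT1-Da and -0.75 (SE 0.45, edgeR adjusted p = 0.428) for RT1-Ba. Both records had whole counts in all 8 rats, so no reads were divided between them and other RT1 records.

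The ratio of class II chain to chaperone varied less than the levels did. RT1-Da stood at 0.187, 0.191, 0.166 and 0.225 of the Cd74 TPM in the Wistar rats and at 0.224, 0.218, 0.220 and 0.205 in the SHR. The ratio of SHR replicate 3, in which Cd74 was lowest, lay within the Wistar range.

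B2m behaved apart from the others. It had 226, 220, 197 and 238 TPM in the Wistar rats and 290, 279, 242 and 262 TPM in the SHR. The study used it as the reference gene of its qRT-PCR, and states that its sequencing showed no strain difference in B2m. It also analysed each primer against Gapdh. For B2m all 4 SHR lay above all 4 Wistar rats in TPM, the only member of 10 whose TPM did not overlap, against 9.83% of all records tested. The normalised counts, which are scaled by the TMM method, did overlap, at 8314 ± 911 (SD, n = 4) for Wistar and 10283 ± 1518 for SHR. The log2 fold change was 0.31 (SE 0.13), with an unadjusted p of 0.0347 and an adjusted p of 0.256 from edgeR. The adjusted p was 0.0815 without SHR replicate 3 and 0.358 without SHR replicate 4.

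SHR replicates 3 and 4 were the lowest 2 of the 8 rats in 8 of 10 members, and in 8.95% of all records tested (1222 of 13659, by normalised count). This pair of rats was singled out after the values were seen, so the share is a description. The SD of log2 CPM (counts scaled to the library size) was larger in SHR than in Wistar for 9 of 10 members, against 64.3% of all records. Its median over the members was 1.17 in SHR and 0.24 in Wistar, where all records tested had 0.26 and 0.21. In bulk RNA, fewer cells of a type and less RNA per cell cannot be told apart.

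The wider macrophage list, which includes the macrophage members themselves, showed the same separation in most records. Of its 38 records for 34 genes, 34 were tested and 0 passed the edgeR test (2.85% of all records did). With edgeR 3 had an unadjusted p under 0.05, while DESeq2 called 1 (799 over all records) and limma 0. The median log2 fold change was 0.00 against 0.01 over all records. SHR replicates 3 and 4 were the lowest of the 8 rats in 22 of the 34 records. Lyz2, the lysozyme of macrophages, had 83.7 to 126 TPM in Wistar and 146, 129, 22.8 and 50.7 TPM in the SHR, with counts that were not whole in any rat. Tyrobp, the adaptor of many myeloid receptors, had 47.7 to 52.9 TPM in Wistar and 97.6, 111, 17.8 and 31.7 TPM in the SHR, so both were highest in the first pair of SHR and lowest in the last. The summed TPM of the list was 437, 497, 501 and 380 in the Wistar rats and 698, 634, 177 and 250 in the SHR.

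Other cell types moved with it only in part. Blood transcripts were low in the same rats: Hba-a1, a haemoglobin chain, had 5226, 1967, 1789 and 4369 TPM in the Wistar rats and 4599, 3003, 239 and 1227 TPM in the SHR. Within Wistar the order differed, since replicate 3 had the highest Csf1r and the lowest Hba-a1. The neutrophil and blood list, from 9 records of which haemoglobins make up nearly all, summed to 3179 to 9639 TPM in Wistar and 440 to 8631 TPM in SHR, and the part of blood in the macrophage and class II values was not tested. Hbb, the other haemoglobin chain, and Alas2, the erythroid enzyme of haem synthesis, were likewise lowest in SHR replicate 3, at 187 and 2.25 TPM. Dcn, a fibroblast proteoglycan, had 526 to 927 TPM in Wistar and 1242, 760, 364 and 606 TPM in the SHR. Col1a1 and Col1a2, the chains of type I collagen, had 18.2 to 38.1 and 26.5 to 58.9 TPM in SHR and 23.9 to 48.7 and 38.2 to 73.0 TPM in Wistar. The B cell list was low, at 0.759 to 3.07 TPM summed in any rat, with Cd79b at no more than 1.15 TPM and the adaptor Blnk at 0.549 to 2.23 TPM. The dendritic cell list summed to 2.60 to 9.91 TPM, where Cd83 had 3.10 to 5.46 TPM in Wistar and 4.48, 2.80, 0.482 and 0.713 TPM in the SHR, Zbtb46 had 1.05 to 1.38 TPM in all rats and Ccr7 had 0.030 to 3.86 TPM. The mast cell list summed to 3.92 to 12.6 TPM, with Kit at 2.68 to 4.95 TPM, Tpsab1 at 0.066 to 5.74 TPM and Cpa3 at 0.069 to 2.59 TPM. SHR replicates 3 and 4 were the lowest rats in 5 of 12 tested records of the T cell list, among them the member Cd4. They were the lowest in 1 of 1 of the B cell list, 2 of 5 of the dendritic cell list and 3 of 7 of the neutrophil and blood list. The same held for 1 of 3 of the mast cell list and 4 of 8 of the endothelium and fibroblast list, and for 8.95% of all records tested.

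The summed neuronal and glial levels did not show the separation. The sympathetic neuron list summed to 30327 to 35785 TPM in Wistar and 31672 to 36801 TPM in SHR, and SHR replicates 3 and 4 were the lowest in 1 of its 11 tested records, with Uchl1, a neuronal deubiquitinase, at 4952 to 6570 TPM. The satellite glia and Schwann cell list, which includes S100b and Mbp, summed to 904 to 1106 TPM in Wistar and to 824, 810, 932 and 904 TPM in the SHR. By single record the pair was lowest in 4 of its 14 tested records (28.6%), where the share over all records tested was 8.95%. Of the interferon response list the pair was lowest in 0 of 21 records, with Irf9 at 50.2 to 69.5 TPM and Isg15 at 32.2 to 82.4 TPM over all rats. Mx2, an interferon-induced GTPase, had 26.8 to 56.3 TPM in Wistar and its highest level, 113 TPM, in SHR replicate 3.

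**Figure D3:**
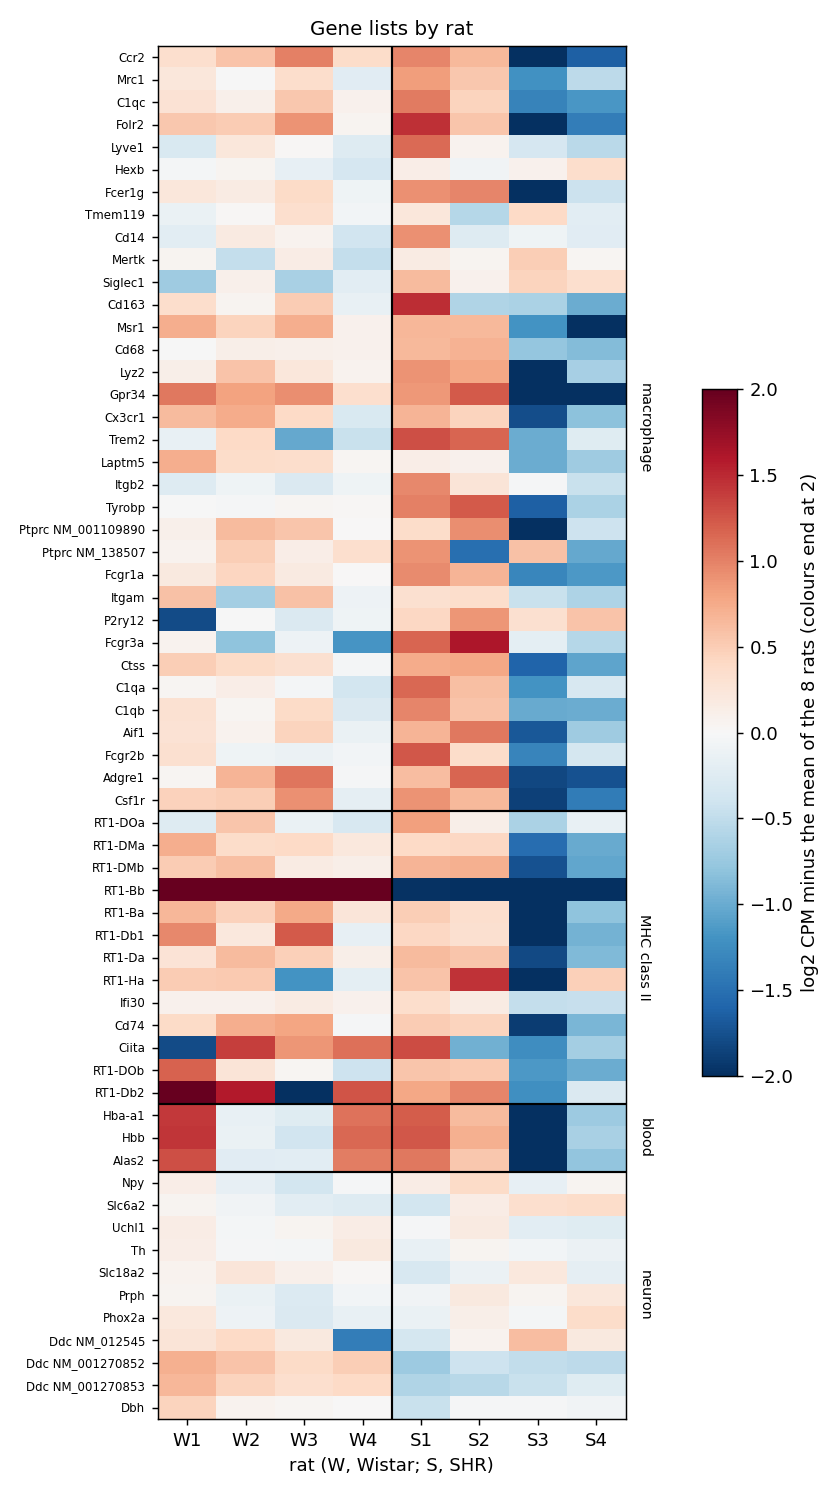
Log2 CPM of each tested record minus the mean of the 8 rats (colour, red higher and blue lower, ending at 2 in either direction) for the macrophage list, the other class II genes, 3 blood genes and the sympathetic neuron list. The columns of SHR replicates 3 and 4 are mostly blue in the macrophage, class II and blood rows and close to white in the neuron rows, and RT1-Bb divides the strains.

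The class II list, which includes the members Cd74, RT1-Da and RT1-Ba, showed the same separation in most records. Of its 14 tested records 1 passed the test, RT1-Bb (2.85% of all records did). SHR replicates 3 and 4 were the lowest in 10. Outside the members these were RT1-DMa, RT1-DMb, RT1-DOb, RT1-Db1, RT1-Bb, Ifi30 and Ctss. The pair was not lowest in RT1-DOa, RT1-Ha, RT1-Db2 or Ciita. The median log2 fold change was -0.55, against 0.01 over all records. The list, members included, summed to 1212, 1402, 1578 and 906 TPM in the Wistar rats and to 1168, 1086, 273 and 456 TPM in the SHR.

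RT1-Bb (NM_001004084), the beta chain that pairs with RT1-Ba, carried a large strain difference that was not seen in the counts summed with a second record. Its estimated counts were 2920, 1829, 4265 and 1491 in the Wistar rats and 71.4, 38.2, 15.1 and 28.1 in the SHR, a log2 fold change of -5.98 (SE 0.50, edgeR adjusted p = 0.000191). The counts were not whole in any rat, and they added up to whole numbers in all 8 with those of NM_001101017, a record without a symbol in the table used. That record had 188, 779, 84.7 and 703 counts in the Wistar rats and 4619, 3137, 983 and 1392 in the SHR.

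RT1-Bb thus held 93.9%, 70.1%, 98.1% and 68.0% of the counts of the pair in the Wistar rats and 1.52%, 1.204%, 1.51% and 1.98% in the SHR. The Wistar rats fell at 2 levels and the inbred SHR at one. Summed, the pair had 2985, 2778, 4021 and 2085 normalised counts in the Wistar rats and 4749, 4120, 939 and 1333 in the SHR. SHR replicates 1 and 2 were the highest of the 8 rats and SHR replicates 3 and 4 the lowest, and within each strain the rats kept the order they had in RT1-Ba TPM. The log2 fold change of the sum was -0.09 (SE 0.46, edgeR adjusted p = 0.943), a comparison chosen once the values were known. Relative to RT1-Ba, however, the pair was mostly higher in SHR. The ratio of the summed count to the RT1-Ba count was 1.095, 1.17, 1.39 and 1.02 in the Wistar rats and 1.96, 1.90, 2.42 and 1.35 in the SHR. Added as TPM, which divides by length (792 bases for NM_001101017 and 1542 for RT1-Bb), the pair stood at 0.797 to 1.08 of the RT1-Ba TPM in Wistar and at 2.14 to 3.69 in SHR. These ratios were not tested.

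RT1-Db1 and RT1-Db2, beta chains of the D molecule, also shared reads with each other. RT1-Db1 had 148, 96.5, 194 and 71.9 TPM in the Wistar rats and 102, 93.7, 21.9 and 40.9 TPM in the SHR. RT1-Db2 took 12.9%, 11.9%, 0.0154% and 12.2% of the counts of the pair in the Wistar rats and 6.27% to 8.03% in the SHR. In Wistar replicate 3 almost no counts were assigned to RT1-Db2, and whether its transcript was absent there was not tested. The summed pair averaged 4439 ± 1683 (SD, n = 4) in Wistar and 2315 ± 1477 in SHR as normalised counts (log2 fold change -0.94, SE 0.48, edgeR adjusted p = 0.349).

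**Figure D4:**
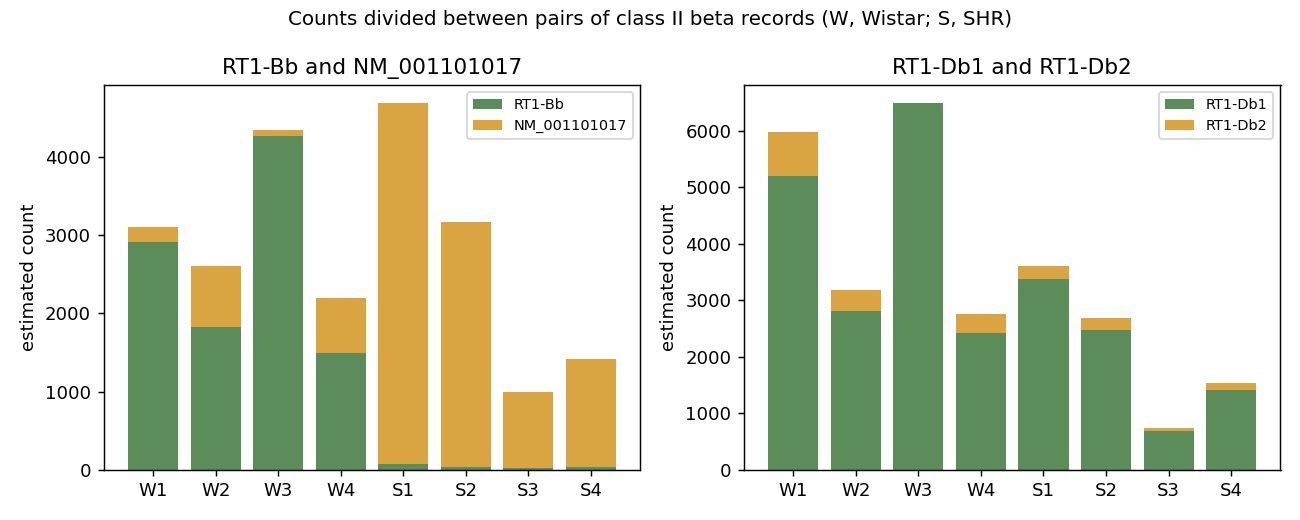
Estimated counts (y axis) of 2 pairs of read-sharing class II beta records in each rat, stacked (left, RT1-Bb and NM_001101017; right, RT1-Db1 and RT1-Db2; W, Wistar; S, SHR). The SHR counts on the left belong almost wholly to NM_001101017, and the height of the stacks is lowest in SHR replicate 3 in both panels.

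The class I side had called records and did not follow the macrophage order. Of 40 tested records on the class I list, 2 were higher and 1 was lower in SHR by the edgeR test (2.85% of all records were called in either direction), and SHR replicates 3 and 4 were the lowest in 1. Tapbp, or tapasin, which loads peptide onto class I molecules and is encoded beside the MHC, had 71.5, 86.4, 88.4 and 87.6 TPM in the Wistar rats and 200, 181, 188 and 128 TPM in the SHR. Every SHR lay above every Wistar rat, and the log2 fold change was 1.05 (SE 0.15, edgeR adjusted p = 0.00433). Its counts were whole in all 8 rats.

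RT1-A1, a classical class I heavy chain, had 9.04, 18.4, 10.6 and 17.8 TPM in the Wistar rats and 144, 50.8, 51.1 and 60.5 TPM in the SHR (log2 fold change 2.48, SE 0.40, edgeR adjusted p = 0.00840). RT1-CE10, another class I record, had 0.582, 4.47, 2.74 and 6.47 TPM in the Wistar rats and 0.149 to 0.403 TPM in the SHR (log2 fold change -3.47, SE 0.66, edgeR adjusted p = 0.0204). The strains did not overlap in either record, in opposite directions. The RT1-CE10 call was lost without Wistar replicate 2 (adjusted p = 0.0648), Wistar replicate 4 (0.0605), SHR replicate 2 (0.0669), SHR replicate 3 (0.0580) or SHR replicate 4 (0.0760), and with limma on log2(TPM + 0.5), where the log2 fold change was -2.03 (adjusted p = 0.0551).

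Neither record had whole counts in any rat, and 32 of the 36 RT1 records outside class II had a count in at least 1 rat that was not whole, within 0.001 or the rounding of its 6 significant digits. Of the 27 that were tested, 17 were over 4-fold apart among the Wistar rats and 9 among the SHR. The share over all records was not taken, and some had few counts, such as RT1-CE3 with 2.48 to 44.5 among the Wistar rats. RT1-CE16, chosen after its values were seen, had 12.9, 0.921, 30.6 and 1.05 TPM in the Wistar rats and 69.7, 17.8, 14.1 and 10.6 TPM in the SHR. Summed, the 36 records averaged 13415 ± 1915 (SD, n = 4) in Wistar and 15602 ± 3074 in SHR as normalised counts (log2 fold change 0.22, SE 0.15, edgeR adjusted p = 0.497, again chosen afterwards). How far reads of each strain's RT1 alleles match the RefSeq records was not tested.

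Psme1 and Calr, the most abundant genes of the class I list after B2m, were close in level between the strains. Psme1, a proteasome activator, had 231 ± 10.01 TPM in Wistar and 251 ± 29.5 TPM in SHR, and Calr, the chaperone calreticulin, had 205 ± 17.6 and 194 ± 20.5 TPM (SD, n = 4). Neither passed the edgeR test (adjusted p = 0.600 and 0.765). Pdia3, also on the list, was less even, with 131 ± 91.4 TPM in Wistar and 59.4 ± 26.7 TPM in SHR. Its Wistar rats ran from 39.4 to 222 TPM, and it was not called (edgeR adjusted p = 0.307).

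**Figure D5:**
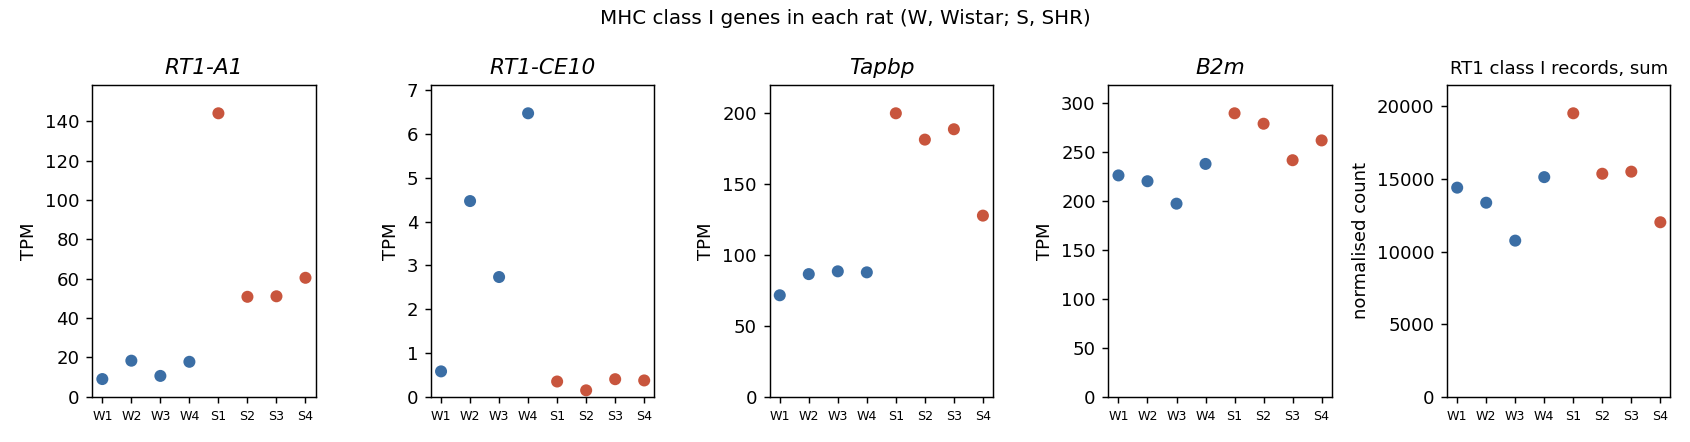
TPM of RT1-A1, RT1-CE10, Tapbp and B2m and the summed normalised count of the 36 RT1 records outside class II in each rat (y axes from 0; blue, Wistar; red, SHR). The strains separate for RT1-A1, RT1-CE10 and Tapbp and overlap in the sum.

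The ligands of the macrophage receptors held 1 called record among 8, where edgeR called 2.85% of all records. Ccl2, the chemokine that draws monocytes, was higher in SHR, with 19.4, 15.3, 19.0 and 30.6 TPM in the Wistar rats and 60.4, 188, 44.9 and 55.2 TPM in the SHR (log2 fold change 2.11, SE 0.48, edgeR adjusted p = 0.0497). SHR replicate 3, with the least Csf1r, was also the SHR with the least Ccl2, yet it stood above every Wistar rat. The call was lost without any one of the 4 Wistar rats (adjusted p from 0.0836 to 0.159) and without SHR replicate 4 (0.0753), it was just missed with DESeq2's size factors in edgeR (0.0524), and the log2 fold change was 1.34 without SHR replicate 2 (adjusted p = 0.0388). Il34, a ligand of Csf1r made by neurons, had 49.7 ± 7.04 TPM in Wistar and 34.4 ± 6.29 TPM in SHR (SD, n = 4, edgeR adjusted p = 0.0999, DESeq2 adjusted p = 0.0272). Cd47, the signal on other cells that restrains macrophages, had 41.2 ± 3.05 and 36.8 ± 4.74 TPM.

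The 8 further lists, of interferon response, T cells, B cells, dendritic cells, neutrophils and blood, mast cells, glia, and endothelium and fibroblasts, held 71 tested records, of which edgeR called 0, with 13 at an unadjusted p under 0.05, 6 called by DESeq2 and 0 by limma. Over all records tested edgeR called 2.85%, DESeq2 799 records and limma 423 records, while the share at an unadjusted p under 0.05 was not taken. On the sympathetic neuron list 2 records of Ddc, the decarboxylase of catecholamine synthesis, were lower in SHR (NM_001270852, log2 fold change -1.08, edgeR adjusted p = 0.000306, and NM_001270853, -0.92, adjusted p = 0.00162). Another Ddc record, NM_012545, was not called. Its log2 CPM minus the mean of the 8 rats was 0.25, 0.39, 0.19 and -1.38 in the Wistar rats and -0.36, 0.07, 0.62 and 0.20 in the SHR.

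The records most like the macrophage members were found from each rat's deviation from its strain mean in log2 CPM. The mean deviation of Cd68, Itgam, Aif1, Csf1r and Cx3cr1 was 0.17, -0.08, 0.26 and -0.35 in the Wistar rats and 0.88, 0.87, -1.08 and -0.66 in the SHR. Pearson's r with it over the 8 rats, which share library and depth with it, was 0.991 for Ugt1a6, 0.989 for Pld4, 0.987 for Rab8a, Ctss and Igsf1, 0.986 for Gpr34 and NM_001115044, and 0.984 for Chi3l1. Ugt1a6 shares exons with its neighbours in the Ugt1a family, so its level is uncertain. Ctss is the endosomal protease that trims Cd74, and Gpr34 is a receptor of microglia and macrophages. These 8 records were picked for the highest r, so high values were fixed by the choice. Without SHR replicates 3 and 1, the rats farthest from the median, the values stayed between 0.967 and 0.989. SHR replicates 2 and 4, at 0.87 and -0.66, remained on opposite sides. Whether r rests on the split among the SHR was therefore not tested.

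The size of the deviations differed among these records. Pld4, an endosomal nuclease, had 11.7, 11.6, 11.9 and 6.27 TPM in the Wistar rats and 15.2, 15.9, 2.50 and 3.64 TPM in the SHR. Gpr34 had 2.38 to 3.72 TPM in Wistar and 3.31, 4.09, 0.191 and 0.283 TPM in the SHR, while Rab8a, a small GTPase of vesicle traffic, had 72.4 to 80.7 TPM in Wistar and 62.6 to 75.4 TPM in SHR. Among the members not used for the mean, r was 0.969 for Cd4, 0.961 for Cd74, 0.959 for RT1-Da, 0.954 for RT1-Ba and 0.630 for B2m, and for B2m it was 0.178 without SHR replicates 3 and 1.

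Together the 10 members took 0.0951% to 0.134% of all counts in the Wistar rats and 0.136%, 0.124%, 0.0456% and 0.0677% in the SHR. The highest and the lowest of the 8 shares both belonged to SHR, and the strains did not differ beyond this spread (0.118% ± 0.0185 and 0.0933% ± 0.0435, SD, n = 4, exact two-sided permutation test, p = 0.343, where the smallest p possible is 0.0286). Replicates are rats, and nothing further is stated about litters or days.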

How the data were processed

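RNA of the right stellate ganglion was sequenced in 8 libraries, from 4 Wistar rats and 4 SHR. Read pairs were quantified by the authors against rat RefSeq transcripts with Salmon 0.8.2 (strand-specific, with GC and positional bias correction), and the deposited values are an expected count and a TPM for each of 18314 records. The labels name a stranded mRNA kit and the paper an amplification kit, which can alter the recovery of scarce transcripts. Salmon divides reads that match several transcripts, so near-identical MHC records can exchange counts (4615 records were not whole in at least 1 rat, where a count was taken as whole within the rounding of its 6 significant digits, or within 0.001 where that is finer). Records were paired with symbols through a RefSeq gene table of GRCr8 (17352 matched, 94.75%).

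Expected counts were rounded and tested with edgeR 4.0.16 in R 4.3.3 (TMM, filterByExpr, glmQLFit, glmQLFTest) with Benjamini-Hochberg adjustment over all 13659 records and a threshold of 0.05. Standard errors were derived from the estimate and its F statistic. TPM served for levels, with no test but limma 3.58.1 on log2(TPM + 0.5) and log2(TPM + 0.1). Also run were DESeq2 1.42.0 (with a length offset, and without), other scaling and filters, records summed by gene, the replicate number as a block, leaving out each rat and, added after the data were seen, read-sharing MHC records summed. Default edgeR, DESeq2 without the length offset and limma on log2(TPM + 0.5) were also run on simulated counts in which 200 records had been changed. The other settings were not simulated.

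Groups followed the labels. The members and lists were chosen with earlier results of these data known. Named were all members, from each list the called records and the 3 with the highest mean TPM, and the 8 most alike. No 2 rats agreed within sampling noise, so all 8 counted. The symbols Erap1, Nlrc5, Cd79a, Ms4a1, Flt3, Itgax and Mpo had no record. A few genes that this rule names are not reported here.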

Additional observations from a re-analysis of the deposited data

Results flagged for a closer look

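Within groups of 4, single rats stood far from the other three by Dixon's criterion (gap to the nearest rat over the range above the 95% critical value) in 5 of 62 groups tested, where chance gives about 3.1. In SHR replicate 1 the normalised count of RT1-A1 was 5835, against 1797 to 2331 in the other SHR. In SHR replicate 2 the normalised count of RT1-CE10 was 4.14, against 9.67 to 9.79. In SHR replicate 2 the normalised count of Ccl2 was 2576, against 506 to 790. In the same rat the summed TPM of the ligand list was 265, against 129 to 152. In SHR replicate 1 the summed TPM of the mast cell list was 12.6, against 4.06 to 5.26. No member was among them.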

How the results depend on the processing

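The count of members past the threshold was 0 in the main analysis, in all 10 other settings and in all 8 that left out a rat, and the smallest adjusted p of any member in any of them was 0.0815 (B2m). The log2 fold changes of B2m, Cd74, RT1-Da, RT1-Ba, Itgam, Csf1r and Cx3cr1 kept their sign throughout. Signs near zero turned: Cd68 was -0.15 with the replicate block, -0.12 and -0.15 with limma at a pseudocount of 0.5 and 0.1, and from -0.22 (without SHR replicate 1 or 2) to 0.27 when a rat was left out. Aif1 was -0.30 with the block, -0.35 with limma at either pseudocount, and from -0.43 to 0.34 when a rat was left out, negative without Wistar replicate 2 or 4 or SHR replicate 1 or 2. Cd4 was from -0.68 to 0.24 when a rat was left out, positive without SHR replicate 3 (0.24) or 4 (0.16). The records called over the whole table were 389, and 799 and 780 by DESeq2 with and without the length offset, 132 with the replicate block, and 237 (without Wistar replicate 2) to 454 (without SHR replicate 1) when a rat was left out. The genes called on the lists were 6, and 15 and 13 by DESeq2 with and without the offset, 2 with the replicate block, 3 with read-sharing records summed, which removes RT1-Bb, RT1-A1 and RT1-CE10 as single records, and 4 to 7 when a rat was left out. The difference in the member share of counts, SHR minus Wistar, was -0.0244 percentage points and ranged from -0.0387 to -0.0085 when a rat was left out. The replicate numbers did not pair the rats (correlation of deviations by number -0.29, -0.12, -0.16 and -0.04), and the block lost the calls of RT1-A1, RT1-CE10, Tapbp and Ccl2. Except where a sum or fewer rats shows it, the cause was not tested. Depth limited Itgam most, at 33 to 94 counts a rat.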
